A study of Mus musculus with 16 samples.

Results

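The genes described here encode the receptors for serotonin, dopamine, noradrenaline and acetylcholine. Members were taken by symbol, as the protein-coding genes named Htr, Drd, Adra, Adrb or Chrm with a subtype number, or Chrn with a subunit letter. This gave 49 of the 55385 genes in the tables, namely 14 serotonin receptor genes, 5 dopamine receptor genes, 6 alpha and 3 beta adrenoceptor genes, 5 muscarinic receptor genes and 16 nicotinic receptor subunit genes. The Htra protease genes and the antisense gene Chrna1os start with the same letters and were left out.

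Total RNA was sequenced from primary hippocampal cultures of newborn C57Bl/6N mice in 4 groups of 4 libraries. All cultures carried a recombinant adeno-associated virus that expressed an shRNA from a U6 promoter and GFP from a chicken β-actin promoter. The virus encoded either Control-shRNA or an shRNA against Dnmt3a1, the longer isoform of the DNA methyltransferase Dnmt3a, and each virus was studied at baseline and after 4 h of bicuculline, which blocks GABA-A receptors and drives bursts of action potentials. One shRNA sequence against Dnmt3a1 was sequenced, which the study names Dnmt3a1-shRNA2, so an effect of the construct and an effect of less Dnmt3a1 cannot be told apart. The study describes the replicates as independent neuronal preparations.

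Monoamines and acetylcholine reach the hippocampus through fibres from the brainstem and the basal forebrain, and they set how strongly local neurons respond to glutamate and GABA. Most of their receptors act through G proteins: Gs raises cyclic AMP, Gi/o lowers it and opens potassium channels, and Gq activates phospholipase C and releases calcium. Nicotinic receptors and the 5-HT3 receptor are instead cation channels, built from subunits of which each has its own gene.

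Libraries held between 28912697 and 29586355 counts, of which the 49 receptor genes took between 0.0520% and 0.0800%. Dnmt3a lay between 293 and 338 CPM (counts scaled to library totals that were adjusted by TMM factors) in the 8 Control-shRNA libraries and between 39.4 and 48.05 CPM in the 8 Dnmt3a1-shRNA libraries. Fos, an immediate early gene, lay between 7.54 and 19.2 CPM in the baseline libraries and between 726 and 1276 CPM in the bicuculline libraries, so the targeted gene and the stimulus followed the labels. All 6 neuronal markers were expressed, from 129 TPM (counts scaled also for transcript length) for Rbfox3 upwards. Of 6 microglial markers 2 passed the filter on low counts: Cx3cr1 and P2ry12 had at most 8 counts in any library and Aif1 and Tmem119 at most 18, while C1qa had 5 to 22 counts and Csf1r 33 to 121. Of the endothelial markers Cldn5 had at most 2 counts and Pecam1 10 to 30. Astrocyte markers were present, with a summed level of 227 to 407 CPM in Control-shRNA baseline libraries and 305 to 550 CPM in Dnmt3a1-shRNA baseline libraries. In bulk RNA of this kind, fewer cells of a type and less RNA per cell cannot be told apart.

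Markers of the neurons that release these transmitters were at low levels, and 5 of 9 passed the filter on low counts. Th, the first enzyme of catecholamine synthesis, had 3 to 17 counts per library, and Chat, which makes acetylcholine, had 0 to 3. The transporters of noradrenaline (Slc6a2) and serotonin (Slc6a4) had at most 7 counts, and the cholinergic genes Slc18a3 and Slc5a7 at most 16. The highest were the dopamine transporter Slc6a3 with 9 to 55 counts, Dbh, which makes noradrenaline, with 12 to 42, and Tph2, which makes the precursor of serotonin, with 15 to 31. Over the 9 genes the sum was 2.71 to 3.70 CPM in Control-shRNA and 3.59 to 4.51 CPM in Dnmt3a1-shRNA baseline libraries. The vesicular monoamine transporter Slc18a2, listed with the pathway genes, had 129 to 432 counts.

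To show sequence context, the stretches before the transcription start were taken from RefSeq (build GRCm38.p6) for some of the members described below. They are given for Chrm2 and Htr2a, which rose with bicuculline in both shRNAs, and for Htr2b, which was called higher in Control-shRNA. Of the neighbouring subunit genes Chrna5 and Chrna3, Chrna5 fell in both shRNAs. Chrna3 was called lower in Control-shRNA only, with groups that overlapped. Chrna1 was lower with the knockdown. The stretches run 5′ to 3′ in the direction of the gene. Capitals mark matches, on either strand, to the short cyclic AMP response element TGACG or to the AP-1 element TGANTCA, both bound by factors that neuronal activity switches on. For Drd5 only 30 bases around the RefSeq start are shown, with capitals on a match to the SRF CArG box.
Chrm2 (chr6:36387834-36388093, plus strand): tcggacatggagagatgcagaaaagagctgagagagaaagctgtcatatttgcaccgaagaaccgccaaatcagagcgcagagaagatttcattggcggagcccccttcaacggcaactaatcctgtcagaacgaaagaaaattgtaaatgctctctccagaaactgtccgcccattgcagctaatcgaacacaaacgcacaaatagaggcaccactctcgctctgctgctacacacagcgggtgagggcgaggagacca
Htr2a (chr14:74640624-74640849, plus strand): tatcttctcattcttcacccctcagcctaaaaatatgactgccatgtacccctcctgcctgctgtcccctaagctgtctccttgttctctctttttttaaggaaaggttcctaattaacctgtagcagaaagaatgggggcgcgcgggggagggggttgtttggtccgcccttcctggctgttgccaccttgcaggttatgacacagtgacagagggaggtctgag
Htr2b (chr1:86111971-86112230, minus strand): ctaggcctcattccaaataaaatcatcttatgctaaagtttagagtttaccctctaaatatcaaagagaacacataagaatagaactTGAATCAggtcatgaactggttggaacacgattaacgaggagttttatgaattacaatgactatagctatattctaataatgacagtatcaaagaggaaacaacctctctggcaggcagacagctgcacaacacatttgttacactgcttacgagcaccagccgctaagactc
Chrna5 (chr9:54980630-54980889, plus strand): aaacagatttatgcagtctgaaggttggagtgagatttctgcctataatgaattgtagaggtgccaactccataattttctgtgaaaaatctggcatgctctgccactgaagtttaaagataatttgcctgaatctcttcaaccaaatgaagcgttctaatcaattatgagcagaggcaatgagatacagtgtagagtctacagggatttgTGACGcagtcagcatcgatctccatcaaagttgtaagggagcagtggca
Chrna3 (chr9:55026553-55026812, minus strand): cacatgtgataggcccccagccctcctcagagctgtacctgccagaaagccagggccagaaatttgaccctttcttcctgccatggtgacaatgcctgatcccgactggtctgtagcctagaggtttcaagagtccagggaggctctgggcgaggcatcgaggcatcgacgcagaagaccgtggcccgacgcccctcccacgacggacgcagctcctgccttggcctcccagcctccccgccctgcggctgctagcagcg
Chrna1 (chr2:73580329-73580588, minus strand): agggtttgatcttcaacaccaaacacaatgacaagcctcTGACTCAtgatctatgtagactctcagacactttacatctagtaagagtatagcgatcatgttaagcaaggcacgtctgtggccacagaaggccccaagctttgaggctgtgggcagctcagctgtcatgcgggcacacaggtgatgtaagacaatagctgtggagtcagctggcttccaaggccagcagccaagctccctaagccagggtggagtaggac
Drd5 (chr5:38319494-38319523, plus strand): aagactgataCCATTAAAGGatcccaagca

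Promoters of 300 bases, 250 before and 50 after a start, were listed for 37 of the 49 members, 42 promoters in all. The full cyclic AMP response element TGACGTCA was in none of the 42, against 1.79% of the 32851 promoters of all genes. The short form TGACG, which the full form contains, was in 6 of 42 (14.3%), those of Adra2a, Adrb1, Chrna5, Chrnb1, Chrnb2 and Htr7, against 20.8% of all promoters. TGANTCA was in 4 of 42 (9.52%), those of Adra1b, Chrna1, Htr2b and Htr2c, against 7.81% of all promoters. The SRF CArG box was in that of Drd5 alone (2.38%), against 1.63% of all promoters. In the stretches printed above, TGANTCA began 163 bases before the start of Htr2b and 211 before that of Chrna1, TGACG began 39 before that of Chrna5, and the CArG box began 5 bases before the RefSeq start of Drd5. GENCODE, whose gene names are used here, starts Drd5 142 bases further upstream, which puts the box 137 bases after that start, within the gene. Neither Chrm2 nor Htr2a, whose folds are given below, held any of these letters in its window. The listed promoters of Adra2c, Chrm5, Htr6 and Chrna4, also called with bicuculline in both shRNAs, held none either and are not printed. Another promoter listed for Chrna5 held none.

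Levels between genes were compared in TPM, which is scaled for transcript length. In Control-shRNA cultures at baseline, 29 of the 49 members had a mean of at least 1 TPM and 7 had a mean of at least 20 TPM. Chrm1, the Gq-coupled muscarinic M1 receptor of pyramidal cells, stood first with 86.9 TPM ± 8.86 (SD, n = 4), and its lowest library (78.5 TPM) lay above the highest library of every other member. Next came Chrm4 with 30.7 ± 1.68 TPM, Chrm3 with 30.7 ± 3.97 TPM, the nicotinic subunits Chrnb2 with 28.8 ± 0.911 TPM, Chrna7 with 27.6 ± 2.18 TPM and Chrna4 with 25.8 ± 2.99 TPM, and the alpha2A adrenoceptor Adra2a with 22.2 ± 3.51 TPM. Neighbours in this order from Chrm4 to Adra2a overlapped between libraries and did not differ beyond their spread. Chrna4 and Chrnb2 form the main heteromeric nicotinic receptor of the brain, and Chrna7 forms a receptor on its own.

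**Figure D1:**
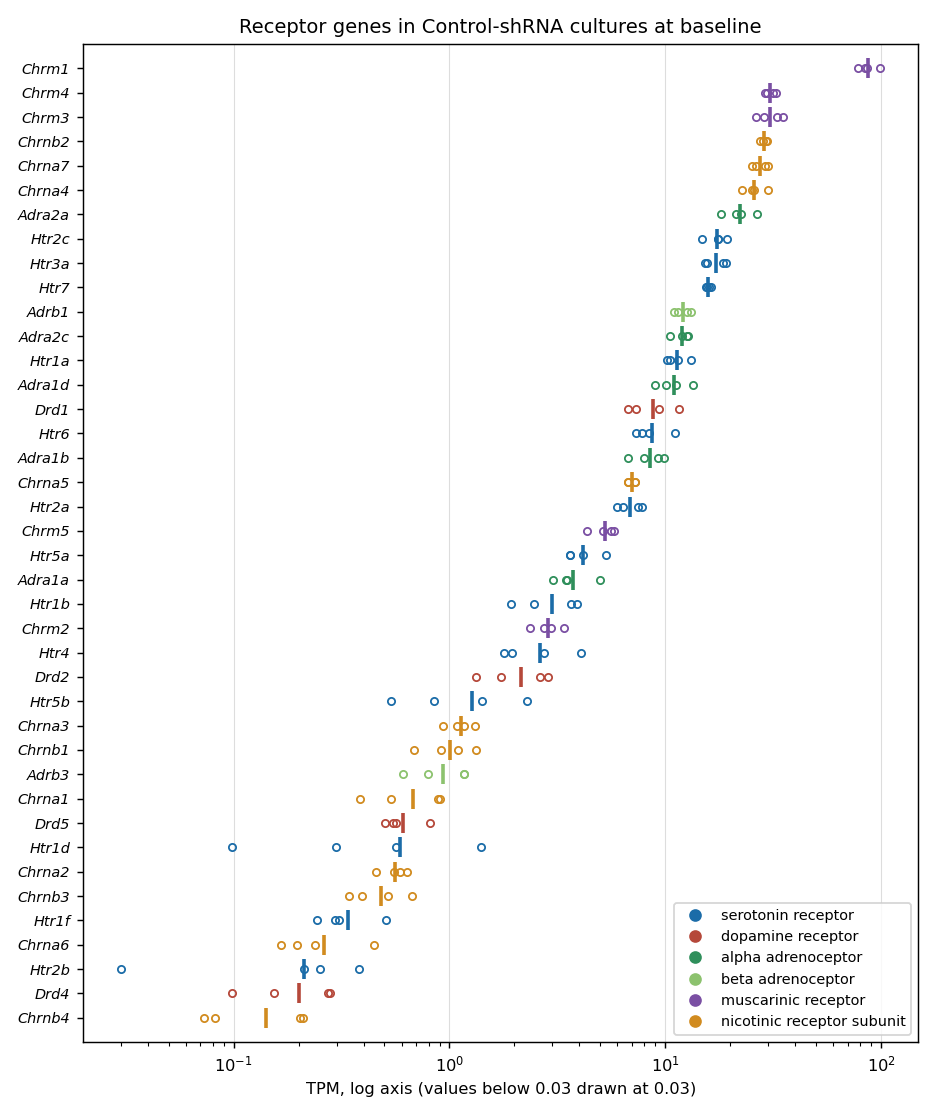
Level of the receptor genes in the 4 Control-shRNA baseline libraries in TPM on a log axis, for 40 members with a mean of at least 0.1 TPM; open circles are libraries, bars are group means and colours are families. Chrm1 stands apart at 86.9 TPM, and 6 further genes lie at 22.2 to 30.7 TPM.

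Serotonin receptors were led by Htr2c with 17.3 ± 1.88 TPM, the channel subunit Htr3a with 17.1 ± 2.01 TPM, the Gs-coupled Htr7 with 15.9 ± 0.381 TPM and the Gi/o-coupled Htr1a with 11.3 ± 1.30 TPM. Among dopamine receptors, Drd1 stood at 8.74 ± 2.19 TPM and Drd2 at 2.14 ± 0.726 TPM, and Drd5 was at 0.606 ± 0.140 TPM. Beta adrenoceptors were represented by Adrb1 at 12.04 ± 1.002 TPM, with Adrb3 at 0.934 ± 0.277 TPM. Summed over a family, muscarinic genes gave 156 ± 13.8 TPM, nicotinic subunits 93.6 ± 5.83 TPM, serotonin receptors 89.5 ± 4.27 TPM, alpha adrenoceptors 57.3 ± 7.31 TPM and dopamine receptors 11.7 ± 2.83 TPM.

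Of the 49 members, 40 passed the filter on low counts and were tested. The 9 others were Adra2b, Drd3, Htr3b, Chrna6, Chrna9, Chrna10, Chrnd, Chrne and Chrng, with at most 18 counts in any library. Drd3 had 1 count in 1 library of 16 and Chrnd likewise. Chrna6 had 7 to 18 counts in Control-shRNA baseline libraries, 2 to 8 in Control-shRNA bicuculline libraries and 0 to 5 in either Dnmt3a1-shRNA group. Chrne, the subunit of the adult neuromuscular receptor, had 0 to 2 counts in Control-shRNA baseline libraries and 0 to 1 in Dnmt3a1-shRNA baseline libraries, and 6 to 9 and 3 to 13 counts in the matching bicuculline libraries. The Chrne groups did not overlap between baseline and bicuculline, and the gene is named here after its values were seen.

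A first comparison asked which receptor genes responded to 4 h of bicuculline in Control-shRNA cultures. A call needed an adjusted p under 0.05 (edgeR quasi-likelihood test, Benjamini-Hochberg over the 17222 genes tested) and an absolute log2 fold change over 0.5. Of the 40 tested members 15 were called (37.5%), against 21.9% of all genes tested. Of these, 6 rose (10.8% of all genes) and 9 fell (11.1% of all genes). The median log2 fold change of the members was -0.06, and that of all genes was 0.01. Called members came from each family except the beta adrenoceptors: 4 of 13 serotonin receptors, 1 of 4 dopamine receptors, 3 of 5 alpha adrenoceptors, 3 of 5 muscarinic receptors and 4 of 10 nicotinic subunits.

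In Dnmt3a1-shRNA cultures the same comparison called 13 of 40 members (32.5%), against 25.8% of all genes, with 5 higher (12.6% of all genes) and 8 lower (13.2% of all genes). Both responses, which share no library, called 10 members in common and in the same direction, 66.7% of the first list and 76.9% of the second. Over all genes the shared calls were 85.9% of the first list and 72.9% of the second. Across the 40 members the log2 fold changes of both responses had a Pearson r of 0.90, and across all 17222 genes r was 0.88, as a description over genes that share libraries. When libraries were scaled by their totals alone, which moved the median of all genes by -0.15 in Control-shRNA and -0.16 in Dnmt3a1-shRNA, the split of calls became 4 higher and 11 lower in Control-shRNA (7.93% and 17.6% of all genes) and 3 higher and 10 lower in Dnmt3a1-shRNA (9.72% and 19.9% of all genes). GABAergic markers moved with the stimulus: 3 of 6 were called higher in each shRNA, and their summed level was 1351 to 1712 CPM at baseline and 1962 to 2451 CPM with bicuculline in Control-shRNA. Of 5 excitatory neuron markers, 2 were called higher and 1 lower in each shRNA. The part of either marker list in the receptor results was not tested.

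**Figure D2:**
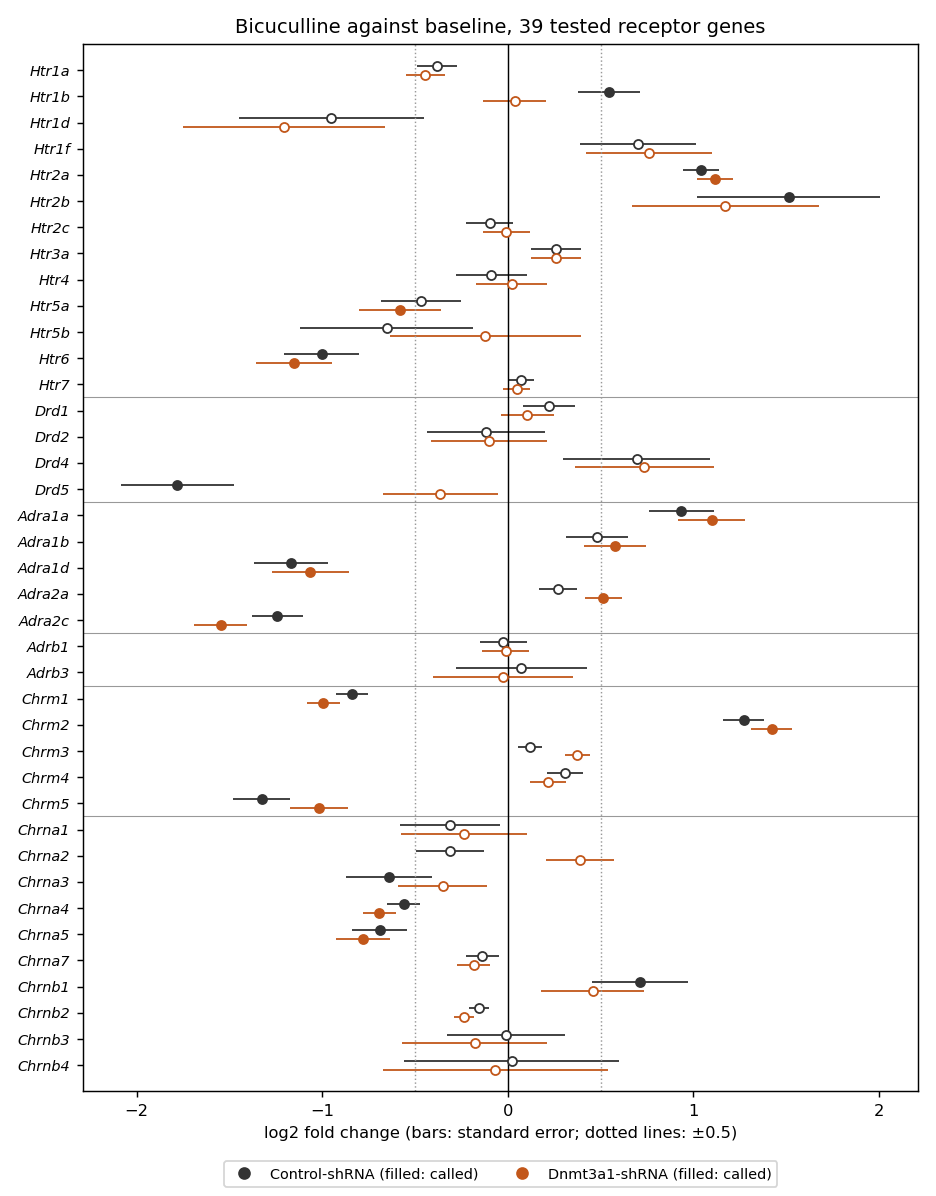
Log2 fold change with bicuculline of 39 tested receptor genes in Control-shRNA (dark) and Dnmt3a1-shRNA (orange) cultures; bars are standard errors, filled points were called and grey lines part the families. Chrm2 and Htr2a lie to the right and Adra2c, Chrm5, Adra1d, Htr6 and Chrm1 to the left in both, while Drd5 lies at -1.78 in Control-shRNA and -0.36 in Dnmt3a1-shRNA.

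Among Gq-coupled receptors, which activate phospholipase C, 6 of 9 (66.7%) were called in each shRNA, 3 higher and 3 lower. Of all genes, 21.9% were called in Control-shRNA and 25.8% in Dnmt3a1-shRNA. The called genes were not all the same. Htr2a, Adra1a, Adra1d, Chrm1 and Chrm5 were called in both shRNAs, Htr2b in Control-shRNA only and Adra1b in Dnmt3a1-shRNA only. Htr2a, the 5-HT2A receptor that psychedelic drugs act on, rose in both. It stood at 17.6, 15.4, 19.0 and 19.7 CPM in Control-shRNA baseline libraries and at 40.2, 33.3, 35.7 and 38.7 CPM with bicuculline. In Dnmt3a1-shRNA it stood at 18.5, 14.6, 19.3 and 17.3 CPM at baseline and at 42.2, 35.8, 38.0 and 35.0 CPM with bicuculline. Every bicuculline library lay above every baseline library. The log2 fold change was 1.04 (SE 0.10, edgeR adjusted p = 1.72e-07) in Control-shRNA and 1.12 (SE 0.10, adjusted p = 5.87e-08) in Dnmt3a1-shRNA.

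Adra1a, the alpha1A adrenoceptor, also rose in both. Control-shRNA libraries gave 5.50, 5.96, 8.21 and 6.03 CPM at baseline and 10.8, 12.5, 13.9 and 11.96 CPM with bicuculline. Dnmt3a1-shRNA libraries gave 4.74, 4.61, 7.68 and 4.11 CPM at baseline and 10.8, 11.4, 13.9 and 9.19 CPM with bicuculline. The groups did not overlap in either shRNA, and the edgeR log2 fold changes were 0.94 (SE 0.18, adjusted p = 0.000346) and 1.099 (SE 0.18, adjusted p = 7.05e-05). Adra1b, a close relative, was called in Dnmt3a1-shRNA, with 5.66, 7.68, 8.73 and 5.96 CPM at baseline and 8.99, 10.8, 11.9 and 10.2 CPM with bicuculline, non-overlapping groups and a log2 fold change of 0.58 (SE 0.17, adjusted p = 0.00927). Its value in Control-shRNA was 0.48 (adjusted p = 0.0269), under the fold threshold, with groups that overlapped. Without Dnmt3a1-shRNA baseline replicate 1 the Adra1b value in Dnmt3a1-shRNA was 0.49, and scaled by library totals alone it was 0.42 (adjusted p = 0.0826), so the call rests on the scaling.

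Adra1d, the remaining alpha1 adrenoceptor, fell where Adra1a rose. It stood at 8.85, 9.14, 10.3 and 7.46 CPM in Control-shRNA baseline libraries and at 4.50, 4.19, 4.29 and 2.95 CPM with bicuculline. The Dnmt3a1-shRNA values were 4.18, 6.28, 9.11 and 5.12 CPM at baseline and 2.69, 3.00, 3.56 and 2.55 CPM with bicuculline. All bicuculline libraries lay below all baseline libraries of the same shRNA, with edgeR log2 fold changes of -1.17 (SE 0.20, adjusted p = 0.000132) and -1.06 (SE 0.21, adjusted p = 0.000383).

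Muscarinic genes moved in opposite directions. Chrm1, the most abundant member, fell in both shRNAs. It stood at 203, 191, 210 and 186 CPM in Control-shRNA baseline libraries and at 108, 116, 112 and 105 CPM with bicuculline. In Dnmt3a1-shRNA the values were 165, 181, 204 and 166 CPM at baseline and 87.8, 83.4, 109 and 79.3 CPM with bicuculline. The groups were far apart, and the log2 fold changes were -0.84 (SE 0.09, edgeR adjusted p = 7.10e-07) and -0.99 (SE 0.09, adjusted p = 7.69e-08), which left 55.9% and 50.2% of the baseline mean.

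Chrm5, the other Gq-coupled muscarinic gene that was called, was at a low level and fell in both shRNAs. Control-shRNA libraries gave 4.21, 2.90, 3.56 and 3.53 CPM at baseline and 1.45, 1.60, 1.20 and 1.40 CPM with bicuculline. Dnmt3a1-shRNA libraries gave 2.46, 2.91, 3.33 and 3.20 CPM at baseline and 1.31, 1.59, 1.68 and 1.29 CPM with bicuculline. No libraries overlapped, and the edgeR log2 fold changes were -1.33 (SE 0.15, adjusted p = 2.22e-06) and -1.02 (SE 0.16, adjusted p = 3.59e-05).

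Chrm2, the Gi/o-coupled M2 receptor that acts as an autoreceptor on cholinergic fibres and marks a class of interneurons, rose in both shRNAs. It stood at 6.65, 7.16, 7.27 and 9.05 CPM in Control-shRNA baseline libraries and at 17.8, 16.8, 19.8 and 18.3 CPM with bicuculline. In Dnmt3a1-shRNA the values were 8.61, 8.403, 8.67 and 8.01 CPM at baseline and 27.5, 20.8, 22.7 and 19.2 CPM with bicuculline. Every stimulated library was above every baseline library, and the mean rose 2.41-fold and 2.68-fold, with log2 fold changes of 1.27 (SE 0.11, edgeR adjusted p = 6.66e-08) and 1.42 (SE 0.11, adjusted p = 1.14e-08). A long noncoding RNA gene on the other strand, 9330158H04Rik, shares 142 of the 6053 exonic bases of Chrm2. It had 6 to 26 counts per library, and its log2 fold changes were 0.84 (adjusted p = 0.0330) and 0.71 (adjusted p = 0.0570). Of the other muscarinic genes, Chrm3 and Chrm4 were not called with bicuculline, with log2 fold changes between 0.12 and 0.37. Chrm4 passed the adjusted p in Control-shRNA (0.31) and Chrm3 in Dnmt3a1-shRNA (0.37), both under the fold threshold.

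Alpha2 adrenoceptors, which couple to Gi/o and lower transmitter release, did not move together. Adra2c had the lowest log2 fold change of all tested members in Dnmt3a1-shRNA. Control-shRNA libraries gave 21.4, 18.6, 18.4 and 16.6 CPM at baseline and 5.70, 10.5, 7.65 and 7.82 CPM with bicuculline. Dnmt3a1-shRNA libraries gave 14.6, 16.2, 16.9 and 14.7 CPM at baseline and 5.11, 5.63, 6.02 and 4.58 CPM with bicuculline. All stimulated libraries lay below all baseline libraries, with edgeR log2 fold changes of -1.24 (SE 0.14, adjusted p = 1.29e-06) and -1.55 (SE 0.14, adjusted p = 1.11e-07).

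Adra2a, at 22.2 TPM at Control-shRNA baseline, went the other way in Dnmt3a1-shRNA, from 53.8, 58.9, 46.4 and 47.5 CPM to 82.5, 77.2, 69.1 and 66.6 CPM, a log2 fold change of 0.52 (SE 0.10, edgeR adjusted p = 0.000395) with groups that did not overlap. In Control-shRNA it went from 38.8, 45.2, 36.4 and 32.1 CPM to 42.5, 49.99, 45.8 and 45.7 CPM, a log2 fold change of 0.27 (SE 0.10, adjusted p = 0.0409) below the fold threshold. The call in Dnmt3a1-shRNA lay close to that threshold. It was lost without Dnmt3a1-shRNA baseline replicate 3 (0.47) or 4 (0.48), without Dnmt3a1-shRNA bicuculline replicate 1 (0.45) or 2 (0.49), and with scaling by library totals alone (0.36).

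Gs-coupled receptors, which raise cyclic AMP, were called in 2 of 8 cases in Control-shRNA (25%, against 21.9% of all genes) and 1 of 8 in Dnmt3a1-shRNA (12.5%, against 25.8%), all lower. These shares lay near or below those of all genes. Of 11 tested Gi/o-coupled receptors, 3 (27.3%) were called in Control-shRNA and 4 (36.4%) in Dnmt3a1-shRNA. Of 11 tested cation channel subunits, 4 (36.4%) were called in Control-shRNA and 2 (18.2%) in Dnmt3a1-shRNA. Htr6, a serotonin receptor found on primary cilia of neurons, fell in both shRNAs. It stood at 7.998, 11.1, 7.91 and 7.199 CPM in Control-shRNA baseline libraries and at 2.87, 5.89, 4.70 and 3.58 CPM with bicuculline. Dnmt3a1-shRNA values were 9.03, 10.7, 8.86 and 8.25 CPM at baseline and 2.89, 4.04, 5.31 and 4.28 CPM with bicuculline. The groups did not overlap, and the edgeR log2 fold changes were -1.001 (SE 0.20, adjusted p = 0.000631) and -1.15 (SE 0.20, adjusted p = 0.000147). Beta adrenoceptors were not called in any comparison, and Adrb1, their main member here, had log2 fold changes of -0.02 and -0.01 with bicuculline, each with an SE of 0.13. Drd1, Htr4 and Htr7 were not called with bicuculline either.

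Drd5, the D5 dopamine receptor, fell in Control-shRNA, from 1.22, 0.772, 0.669 and 0.811 CPM at baseline to 0.298, 0.355, 0.172 and 0.175 CPM with bicuculline, a log2 fold change of -1.78 (SE 0.31, edgeR adjusted p = 0.000140) with no overlap. Its values in Dnmt3a1-shRNA were 0.281, 0.621, 0.572 and 0.438 CPM at baseline and 0.356, 0.444, 0.321 and 0.369 CPM with bicuculline, groups that overlapped, with a log2 fold change of -0.36 (SE 0.31, adjusted p = 0.369). Counts behind these values were low, 22 to 37 per library in Control-shRNA at baseline and 4.68 to 9.52 with bicuculline. The antisense gene Gm26560 covers 48.6% of the Drd5 exons and had at most 3.32 counts. No strand setting of the quantification is given in the sources used here, so reads of the 2 genes may not be told apart.

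**Figure D3:**
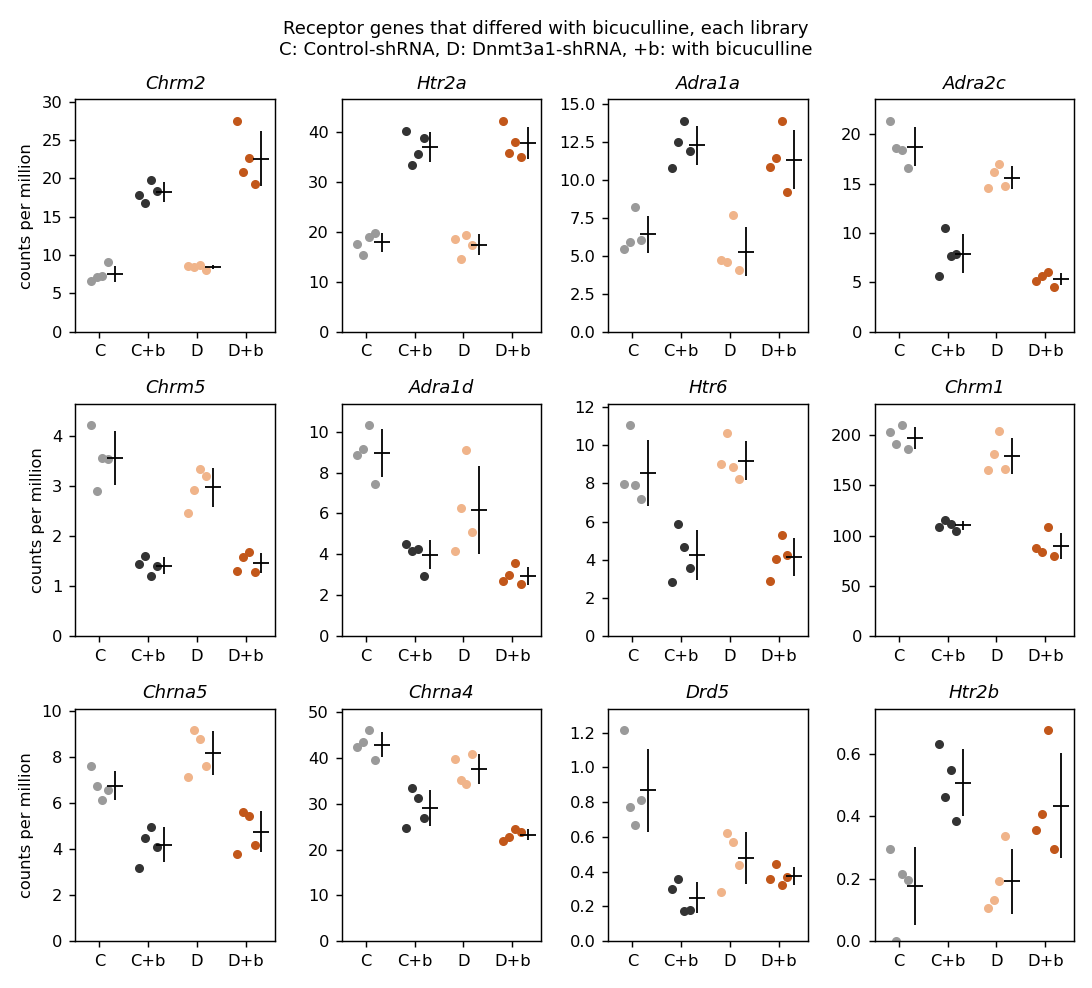
CPM in each library for 12 receptor genes with a difference between bicuculline and baseline, in Control-shRNA (C, C+b) and Dnmt3a1-shRNA (D, D+b) cultures; points are libraries, black bars are the mean ± SD and each axis starts at 0. Chrm2, Htr2a and Adra1a are higher in all stimulated libraries than in baseline libraries of the same shRNA, and Adra2c, Chrm5, Adra1d, Htr6, Chrm1, Chrna5 and Chrna4 are lower.

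Among nicotinic subunits, Chrna4 and Chrna5, which join in one receptor type with Chrnb2, fell in both shRNAs. Chrna4 stood at 42.4, 43.6, 46.2 and 39.6 CPM in Control-shRNA baseline libraries and at 24.7, 33.5, 31.3 and 26.9 CPM with bicuculline. In Dnmt3a1-shRNA it stood at 39.9, 35.3, 34.3 and 40.9 CPM at baseline and at 21.9, 22.8, 24.6 and 23.8 CPM with bicuculline. The groups did not overlap, and the edgeR log2 fold changes were -0.56 (SE 0.09, adjusted p = 6.55e-05) and -0.69 (SE 0.09, adjusted p = 6.19e-06). Without Control-shRNA bicuculline replicate 1 the Control-shRNA value was -0.49, under the fold threshold.

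Chrna5 stood at 7.603, 6.76, 6.11 and 6.55 CPM in Control-shRNA baseline libraries and at 3.16, 4.47, 4.98 and 4.10 CPM with bicuculline. Dnmt3a1-shRNA libraries held 7.13, 9.19, 8.80 and 7.61 CPM at baseline and 3.80, 5.59, 5.45 and 4.17 CPM with bicuculline. Again no libraries overlapped, with edgeR log2 fold changes of -0.69 (SE 0.15, adjusted p = 0.00109) and -0.78 (SE 0.15, adjusted p = 0.000269). Chrnb2, the partner of both, passed the adjusted p with small log2 fold changes of -0.16 (adjusted p = 0.0314) and -0.24 (adjusted p = 0.00189), below the fold threshold. Its exons share 1365 bases with Adar on the other strand, which rose with log2 fold changes of 0.68 and 0.78. Chrna7 was not called, at -0.14 and -0.18.

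Chrna5 and Chrna3 lie tail to tail on chromosome 9, 2331 bases apart, and Chrna3 is followed by Chrnb4 after 1591 bases, a cluster known from human studies of smoking. Chrna3 fell in Control-shRNA, from 1.91, 2.50, 2.16 and 2.21 CPM to 0.744, 2.09, 1.51 and 1.26 CPM, a log2 fold change of -0.64 (SE 0.23, edgeR adjusted p = 0.0352) with groups that overlapped. Leaving out single libraries ended the call 6 times, namely without Control-shRNA baseline replicate 2 (-0.57), 3 (-0.65) or 4 (-0.64) and without Control-shRNA bicuculline replicate 1 (-0.44), 3 (-0.68) or 4 (-0.61). In Dnmt3a1-shRNA its log2 fold change was -0.35 (adjusted p = 0.250). Chrnb4 was at 1 to 12 counts per library and was not called, with log2 fold changes of 0.02 and -0.07.

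Chrnb1, the muscle-type beta subunit, rose in Control-shRNA from 0.922, 0.988, 0.608 and 0.811 CPM to 1.90, 1.14, 1.06 and 1.37 CPM, a log2 fold change of 0.71 (SE 0.26, edgeR adjusted p = 0.0346). The groups did not overlap, but the call was lost without Control-shRNA baseline replicate 3 (0.59) or 4 (0.70), without Control-shRNA bicuculline replicate 1 (0.51) or 4 (0.70), and with scaling by library totals alone (0.55, adjusted p = 0.0836). In Dnmt3a1-shRNA the value was 0.46 (SE 0.28, adjusted p = 0.199), with groups that overlapped.

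Further serotonin receptors were called in 1 shRNA each, at low or variable levels. Htr2b rose in Control-shRNA from 0.296, 0, 0.213 and 0.195 CPM to 0.633, 0.462, 0.549 and 0.386 CPM, a log2 fold change of 1.51 (SE 0.49, edgeR adjusted p = 0.0199) over 0 to 17 counts per library. Its groups did not overlap, and without Control-shRNA bicuculline replicate 1 the adjusted p was 0.0516. In Dnmt3a1-shRNA it stood at 0.105, 0.131, 0.191 and 0.337 CPM at baseline and at 0.356, 0.407, 0.677 and 0.295 CPM with bicuculline, groups that overlapped, with a log2 fold change of 1.17 (SE 0.50, adjusted p = 0.0668). Psmd1 on the other strand shares 252 of its 2131 exonic bases and did not pass the test (log2 fold change 0.01).

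Htr1b, a Gi/o-coupled receptor on nerve terminals, rose in Control-shRNA from 4.25, 5.12, 6.54 and 4.25 CPM to 6.44, 8.84, 8.44 and 5.72 CPM, with overlapping groups and a log2 fold change of 0.54 (SE 0.17, edgeR adjusted p = 0.0150). In Dnmt3a1-shRNA the value was 0.04 (SE 0.17, adjusted p = 0.881). The call was lost without Control-shRNA baseline replicate 1 (0.47) or 4 (0.47), without Control-shRNA bicuculline replicate 2 (0.44) or 3 (0.47), and with scaling by library totals alone (0.38). The antisense gene D430036J16Rik shares 18.04% of its exonic bases. It had 12.6 to 47.6 counts per library, and its log2 fold changes were 0.54 (adjusted p = 0.201) in Control-shRNA and 0.38 (adjusted p = 0.373) in Dnmt3a1-shRNA.

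Htr5a, also Gi/o-coupled, fell in Dnmt3a1-shRNA from 5.97, 8.83, 11.3 and 7.47 CPM to 5.54, 5.998, 6.99 and 3.95 CPM, with overlapping groups and a log2 fold change of -0.58 (SE 0.22, edgeR adjusted p = 0.0388). The call was lost without Dnmt3a1-shRNA baseline replicate 2 (-0.56) or 3 (-0.40) and without Dnmt3a1-shRNA bicuculline replicate 1 (-0.58), 2 (-0.62) or 4 (-0.45). In Control-shRNA it was -0.47 (adjusted p = 0.0899). Htr1a, the main Gi/o-coupled serotonin receptor, passed the adjusted p below the fold threshold in both shRNAs, at -0.38 (adjusted p = 0.00852) and -0.44 (adjusted p = 0.00232), and reached -0.53 and -0.59 when scaled by library totals alone. Htr1f, at 6 to 24 counts per library, had a log2 fold change of 0.70 (adjusted p = 0.0812) in Control-shRNA, and 0.70 (adjusted p = 0.0316) with replicate number as a block. Htr2c, Htr3a, Htr4 and Htr7 were not called, with log2 fold changes between -0.10 and 0.26, and nor were Htr1d and Htr5b, whose SE was between 0.468 and 0.545.

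A second question was which receptor genes differed with the Dnmt3a1 knockdown. At baseline 4 of 40 tested members were called (10%), against 5.83% of all genes, and all 4 were lower (4.07% of all genes were called lower and 1.76% higher). With bicuculline 4 of 40 were called, against 5.89% of all genes, with 1 higher (2% of all genes) and 3 lower (3.90% of all genes). The median log2 fold change of the members was -0.16 at baseline and -0.11 with bicuculline, and that of all genes was 0.01 and -0.01. Chrna1 and Chrnb3 were called in both conditions, which share no library. Fos, used above to check the labels, was called higher with the knockdown at baseline (0.58, edgeR adjusted p = 0.0437), with groups that overlapped. That call was kept in 4 of 16 fits that left out a library. With bicuculline Fos was not called (0.37, adjusted p = 0.136), and Arc, another immediate early gene, was called in neither condition (-0.39 and 0.05). Microglial markers summed to 3.43 to 4.51 CPM in Control-shRNA and 1.89 to 3.04 CPM in Dnmt3a1-shRNA baseline libraries. Csf1r made up most of that sum, with means of 2.87 and 1.81 CPM. It was called lower in both conditions (-0.66 and -0.75, edgeR adjusted p = 0.0400 and 0.0259). C1qa, the other microglial marker tested, was not called, at 0.04 and -0.02. Astrocyte markers are given above. Their part in these results was not tested.

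**Figure D4:**
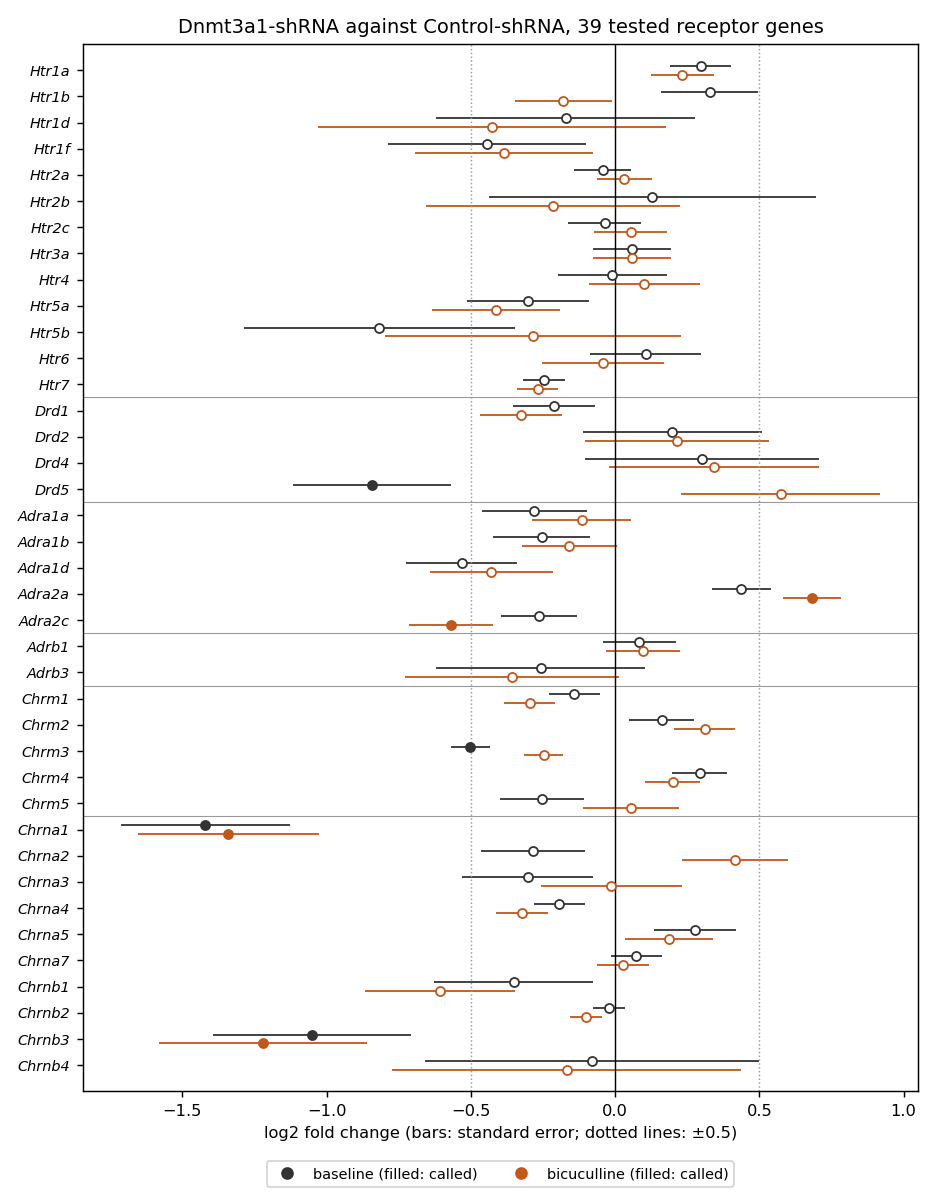
Log2 fold change of Dnmt3a1-shRNA against Control-shRNA for 39 tested receptor genes at baseline (dark) and with bicuculline (orange); bars are standard errors, filled points were called and grey lines part the families. Chrna1 and Chrnb3 lie furthest to the left in both conditions, and Adra2a lies at 0.44 and 0.68.

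Chrna1, the alpha subunit of the muscle-type nicotinic receptor, was present at a low level and was lower with the knockdown in both conditions. At baseline it stood at 0.823, 1.08, 1.70 and 1.82 CPM in Control-shRNA and at 0.281, 0.523, 0.826 and 0.370 CPM in Dnmt3a1-shRNA. With bicuculline it stood at 1.01, 1.17, 1.098 and 1.09 CPM in Control-shRNA and at 0.396, 0.370, 0.463 and 0.480 CPM in Dnmt3a1-shRNA. The stimulated groups did not overlap, and the baseline groups touched by 1 library (0.826 against 0.823 CPM). The edgeR log2 fold changes were -1.42 (SE 0.29, adjusted p = 0.00279) and -1.34 (SE 0.31, adjusted p = 0.00648), and both calls were kept in all 16 fits that left out a library. Counts ran from 8.12 to 56.4 per library. The other muscle-type subunits were Chrnb1, at log2 fold changes of -0.35 and -0.61 (adjusted p = 0.439 and 0.120), and Chrnd, Chrne and Chrng, which were too low to test.

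Chrnb3, a subunit of nicotinic receptors of catecholamine neurons, was lower in both conditions. At baseline it stood at 0.724, 0.772, 1.31 and 0.778 CPM in Control-shRNA and at 0.246, 0.294, 0.603 and 0.572 CPM in Dnmt3a1-shRNA, groups that did not overlap, with a log2 fold change of -1.05 (SE 0.34, edgeR adjusted p = 0.0453). With bicuculline it stood at 0.633, 0.923, 1.24 and 0.772 CPM and at 0.356, 0.296, 0.642 and 0.222 CPM, with 1 library overlapping and a log2 fold change of -1.22 (SE 0.36, adjusted p = 0.0257). These calls rest on 6 to 43 counts per library. The baseline call was kept in 5 of 16 fits that left out a library and the call with bicuculline in 11 of 16, with values from -0.81 without Control-shRNA baseline replicate 3 and -1.02 without Control-shRNA bicuculline replicate 3. Chrna6, which lies 3481 bases from Chrnb3 on the opposite strand, is the untested gene with 7 to 18 counts in Control-shRNA and 0 to 5 in Dnmt3a1-shRNA baseline libraries.

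Drd5 was lower at baseline, where its Control-shRNA and Dnmt3a1-shRNA libraries listed above did not overlap, with a log2 fold change of -0.84 (SE 0.27, edgeR adjusted p = 0.0435). With bicuculline the value was 0.57 (SE 0.35, adjusted p = 0.277) with overlap. The baseline call was kept in 7 of 16 fits that left out a library. The value was -0.64 (adjusted p = 0.161) without Control-shRNA baseline replicate 1 and -0.67 (adjusted p = 0.130) without Dnmt3a1-shRNA baseline replicate 1. DESeq2 did not call it either (adjusted p = 0.0706). In edgeR it was lost with only the 2 groups compared (adjusted p = 0.0727) and without the filter on low counts (adjusted p = 0.115). With limma on log2(TPM + 1) the value was -0.29, under the fold threshold.

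Chrm3, the Gq-coupled M3 receptor, is one of the more abundant members and was lower at baseline by a small amount. It stood at 46.3, 51.7, 53.1 and 46.0 CPM in Control-shRNA and at 36.0, 32.8, 37.2 and 33.2 CPM in Dnmt3a1-shRNA, groups that did not overlap, with a log2 fold change of -0.50 (SE 0.07, edgeR adjusted p = 6.59e-05). With bicuculline it stood at 53.2, 53.6, 57.4 and 50.02 CPM and at 46.7, 41.9, 45.3 and 46.6 CPM, again without overlap, with a log2 fold change of -0.25 (SE 0.07, adjusted p = 0.0162), below the fold threshold. The baseline value lay at the threshold, and it was -0.48 without Control-shRNA baseline replicate 2, -0.46 without replicate 3, -0.47 without Dnmt3a1-shRNA baseline replicate 2 and -0.48 without replicate 4. The adjusted p passed in each of these fits.

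Adra2a, which inhibits noradrenaline release and is also found on dendrites, was higher with the knockdown in bicuculline-treated cultures. Its Control-shRNA libraries (42.5 to 49.99 CPM) and Dnmt3a1-shRNA libraries (66.6 to 82.5 CPM) did not overlap, and the log2 fold change was 0.68 (SE 0.10, edgeR adjusted p = 0.000176). At baseline the groups did not overlap either (32.1 to 45.2 and 46.4 to 58.9 CPM), and the log2 fold change of 0.44 (SE 0.10, adjusted p = 0.00667) was below the fold threshold. Adra2c was lower with the knockdown in bicuculline-treated cultures, at -0.57 (SE 0.15, adjusted p = 0.0122), with groups that overlapped. Without Control-shRNA bicuculline replicate 2 the Adra2c value was -0.40 (adjusted p = 0.0449). At baseline Adra2c stood at -0.26 (adjusted p = 0.202).

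**Figure D5:**
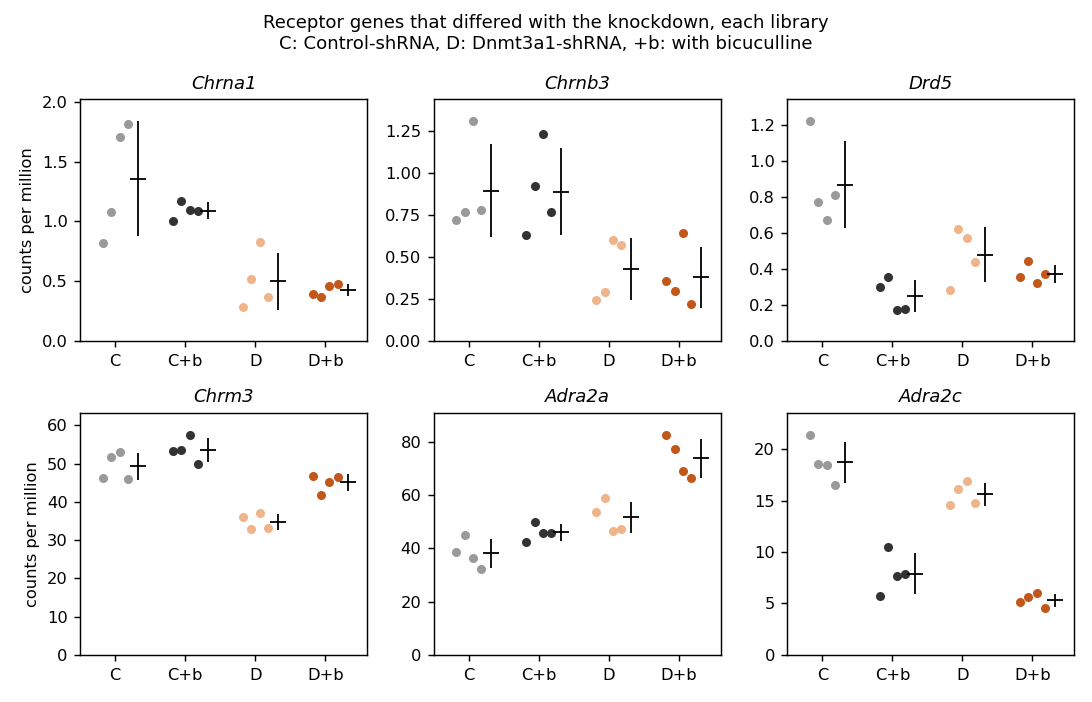
CPM in each library for the 6 receptor genes called between Dnmt3a1-shRNA and Control-shRNA, at baseline (C, D) and with bicuculline (C+b, D+b); points are libraries, black bars are the mean ± SD and each axis starts at 0. Chrna1 and Chrnb3 are lower in D than in C in both conditions, and Adra2a is higher, at 66.6 to 82.5 CPM in D+b against 42.5 to 49.99 CPM in C+b.

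Of the members not called, Htr7 had log2 fold changes of -0.25 (adjusted p = 0.0253) at baseline and -0.27 (adjusted p = 0.0154) with bicuculline, with no overlap in either condition. Chrm4 had 0.29 (adjusted p = 0.0473) at baseline, Chrm1 had -0.30 (adjusted p = 0.0280) and Chrna4 -0.32 (adjusted p = 0.0205) with bicuculline, all below the fold threshold. Chrm2 stood at 18.2 ± 1.27 CPM in Control-shRNA and 22.6 ± 3.58 CPM in Dnmt3a1-shRNA bicuculline libraries, which overlapped, with a log2 fold change of 0.31 and an adjusted p of 0.049997 (edgeR, 0.0252 to 0.277 under the alternatives), and at baseline its value was 0.16 (adjusted p = 0.378). Adra1d had a baseline log2 fold change of -0.53 (edgeR adjusted p = 0.0688) and was not called in the main fit. It was called lower by voom with limma (-0.58, adjusted p = 0.0346) and by DESeq2 (-0.53, adjusted p = 0.0470). In edgeR without the filter on low counts it was also called (-0.53, adjusted p = 0.0479). With replicate number as a block it was -0.55 (adjusted p = 0.00353) and called. Htr5b, at 5 to 59 counts per library at baseline, likewise went from -0.82 (adjusted p = 0.270) to -0.84 (adjusted p = 0.0402) with the block. The alpha1 gene Adra1a, the serotonin receptors Htr2a, Htr2c, Htr3a, Htr4 and Htr6, and Adrb1, Chrna7 and Chrnb2 had log2 fold changes between -0.28 and 0.11 in both conditions.

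The rest of the tested members that were never called had low or variable levels. Drd2 had log2 fold changes between -0.12 and 0.21 over the 4 comparisons, and Drd1 between -0.33 and 0.22. Drd4, at 0.201 TPM in Control-shRNA baseline libraries, had 0.69 (adjusted p = 0.177) and 0.74 (adjusted p = 0.121) with bicuculline. Chrna2, at 0.560 TPM, had -0.31 (adjusted p = 0.230) with bicuculline in Control-shRNA and 0.39 (adjusted p = 0.116) in Dnmt3a1-shRNA. Adrb3 lay between -0.36 and 0.07. Htr1d, at 1 to 18 counts per library, had -0.95 (adjusted p = 0.141) and -1.21 (adjusted p = 0.0815) with bicuculline.

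Whether the response to bicuculline differed between the shRNAs was tested as an interaction. No gene was called by edgeR (0% of 17222), where 852 genes had an unadjusted p under 0.05. DESeq2 called 17 genes, edgeR with the replicate block or with no filter on low counts called 3, and voom called 0. Among the 40 members 4 had an unadjusted p under 0.05. Drd5 had the largest value, a difference of 1.42 between its log2 responses (SE 0.44, edgeR adjusted p = 0.788). Chrm3 had 0.25 (adjusted p = 0.877), Chrna2 had 0.70 (adjusted p = 0.892) and Htr1b had -0.51 (adjusted p = 0.99997). The calls that one shRNA gave and the other did not are therefore not shown to differ between them.

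Other genes of the same pathways were followed in 8 lists with 68 genes, of which 58 were tested. With bicuculline 6 were called higher and 3 lower in Control-shRNA (15.5%, against 21.9% of all genes), and 7 higher and 3 lower in Dnmt3a1-shRNA (17.2%, against 25.8%). The list medians were 0.08 and 0.04. With the knockdown 4 were higher and 2 lower at baseline (10.3%, against 5.83% of all genes), and 2 higher and 1 lower with bicuculline (5.17%, against 5.89%), with medians of 0.07 and 0.04.

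Among genes of monoamine synthesis, 1 of 8 was called with bicuculline: Gch1, which makes the cofactor of the hydroxylases, rose with log2 fold changes of 1.03 (edgeR adjusted p = 0.000107) in Control-shRNA and 1.53 (adjusted p = 2.12e-06) in Dnmt3a1-shRNA, and was lower with the knockdown at baseline (-0.64, adjusted p = 0.0268). Of 8 transport and breakdown genes, the vesicular transporter Slc18a2 rose in both shRNAs (0.78 and 1.22), and Maoa rose in Dnmt3a1-shRNA (0.50). With the knockdown at baseline, Slc6a3 (0.85) and the uptake transporter Slc29a4 (0.55) were higher. Histamine receptors had 3 tested genes of 5 listed with trace amine receptors: Hrh1 rose (0.57 and 0.94) and Hrh3 fell (-0.52 and -0.57) with bicuculline, and Hrh3 was higher with the knockdown in both conditions (0.65 and 0.60).

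Of the 3 tested genes of the acetylcholine list, Ache, the enzyme that breaks acetylcholine down, was lower with the knockdown in both conditions. It stood at 99.2, 86.1, 87.6 and 94.0 CPM in Control-shRNA and at 40.1, 39.8, 60.0 and 38.4 CPM in Dnmt3a1-shRNA baseline libraries. With bicuculline it stood at 108, 102, 116 and 110 CPM and at 49.5, 51.8, 65.8 and 50.7 CPM. No libraries overlapped, and the edgeR log2 fold changes were -1.04 (SE 0.12, adjusted p = 1.79e-05) and -0.998 (SE 0.12, adjusted p = 2.28e-05).

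Downstream of the receptors, none of the 9 G protein alpha subunit genes was called in any comparison, with log2 fold changes between -0.36 and 0.36, and Gnas, which encodes Gs, was the most abundant at 2446 to 3077 TPM. Of 7 receptor kinases and arrestins, Grk5 rose with bicuculline in both shRNAs (1.13 and 1.15). Of 8 tested chaperones and toxin-like modulators of nicotinic receptors, Tmem35a, which helps to assemble Chrna7 receptors, rose in both (0.66 and 0.58). Of 12 effectors and scaffolds, the potassium channel gene Kcnj6 rose (0.59 and 0.63), its relative Kcnj9 fell (-0.54 and -0.52) and the anchoring protein gene Akap5 fell (-0.54 and -0.73) with bicuculline, and Prkar2b, a regulatory subunit of protein kinase A, was higher with the knockdown in both conditions (0.55 and 0.52).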

How the data were processed

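Per the labels and the study's methods, the authors trimmed paired-end reads with Trim Galore 0.6.4 and quantified them with kallisto (version 0.4.6 in the submitters' processing notes) on GRCm38.p6. The authors deposited an estimated count per gene, not scaled for depth or length, and a TPM value per gene, scaled for transcript length and library total. Estimated counts of near-identical transcripts are shared out by kallisto. No strand setting is given in the sources used here.

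Symbols and coordinates came from GENCODE M21 (55144 of 55385 identifiers matched). After rounding to integers, the estimated counts entered edgeR 4.0.16 (R 4.3.3): TMM scaling, edgeR's filter on low counts, 1 quasi-likelihood fit of 4 groups, Benjamini-Hochberg adjustment over 17222 genes, and a call at an adjusted p under 0.05 with an absolute log2 fold change over 0.5 (for the interaction, at the adjusted p alone). CPM values are TMM-scaled. The SE of an edgeR value was derived from its test, as the absolute log2 fold change over the square root of the quasi-likelihood F statistic. With totals of 28912697 to 29586355 counts, 3 counts correspond to about 0.1 CPM. The steps were tested on simulated counts for the bicuculline comparison in Control-shRNA (16955 genes), where 77 of 100 genes changed by a log2 of 1 and 88 of 100 changed by 1.5 were recovered, and 5 unchanged genes were called. The alternatives were voom with limma 3.58.1, DESeq2 1.42.0, other scalings and filters, limma on log2(TPM + 1) and log2(TPM + 0.1), only the groups compared, other fold thresholds, a replicate block and leaving out each library.

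The members and lists were chosen with earlier results of these data known. The values of 1 tested member are not reported here, though it counts among the 49 and the 40. Of the rest, those called in a comparison are given by library with their statistics, the others by level or range. Replicate numbers come from the labels. Deviations of same-numbered libraries correlated at 0.14 to 0.22 for bicuculline in Control-shRNA and at 0.20 to 0.36 for the knockdown at baseline, so the numbers were taken to pair those groups. For bicuculline in Dnmt3a1-shRNA r was 0.06 to 0.34, and for the knockdown with bicuculline 0.07 to 0.39. Because of the lowest values, the numbers were not taken to pair these groups, though the highest values exceeded 0.22. The main fit held no replicate term for any comparison. Counts of libraries of 1 group differed by more than sampling noise in every pair (chi-square over its degrees of freedom at least 7.14). Proteins were not used here.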

Additional observations from a re-analysis of the deposited data

Results flagged for a closer look

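Among 156 groups of 4 libraries (39 tested receptor genes), 4 held a library whose gap to its nearest neighbour exceeded Dixon's critical value for 4 samples, and chance flags about 1 group in 20. Drd1 was high at 11.7 CPM in Dnmt3a1-shRNA baseline replicate 3, against 7.74 to 8.33 CPM in the other libraries of its group. Drd4 was high at 0.675 CPM in Control-shRNA bicuculline replicate 2, against 0.246 to 0.309 CPM. Chrna7 was high at 26.8 CPM in Dnmt3a1-shRNA bicuculline replicate 1, against 21.8 to 22.6 CPM. Chrnb3 was high at 1.31 CPM in Control-shRNA baseline replicate 3, against 0.724 to 0.778 CPM, and without that library its knockdown value at baseline was -0.81 (edgeR adjusted p = 0.159).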

How the results depend on the processing

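The 36 log2 fold changes of receptor genes that were called kept their direction in all 929 values computed under the alternatives other than the fold thresholds. At the threshold of 0.5 they stayed called in 843 of these, and 20 of the 36 stayed called in every one. With a fold threshold of 1 in place of 0.5, 8 members were called with bicuculline in Control-shRNA (8% of all genes), 7 in Dnmt3a1-shRNA (9.76%), and 2 for the knockdown in each condition (1.02% and 1.07%). With no fold threshold the knockdown called 7 of 40 members at baseline (16.3% of all genes) and 9 with bicuculline (17.7%). A minimum of 10 counts in every library, or limma on log2(TPM + 1), left 1 member called for the knockdown at baseline and 2 with bicuculline, where 6.40% and 6.43% of all genes were called under the first and 4.76% and 4.56% under the second. A fit of only the 2 groups compared left 2 at baseline (5.66% of all genes). Without each library in turn there were 12 to 15 and 11 to 14 members for bicuculline in Control-shRNA and Dnmt3a1-shRNA, 1 to 6 and 2 to 4 for the knockdown at baseline and with bicuculline, and 0 for the interaction, with 20.7% to 21.9%, 24.4% to 26.1%, 4.73% to 6.42% and 4.94% to 6.58% of all genes in the first 4. With replicate number as a block, 16 and 15 members were called for bicuculline in Control-shRNA and Dnmt3a1-shRNA, and 6 and 4 for the knockdown at baseline and with bicuculline (23.1%, 26.8%, 7.46% and 7.77% of all genes), and the block ended no call. Where the numbers were not taken to pair the libraries, the block added Htr1f and Htr1d for bicuculline in Dnmt3a1-shRNA. Without the filter on low counts Chrne was called higher with bicuculline in both shRNAs, and Chrna6 lower with the knockdown at baseline. The filter on low counts left 9 members untested, with at most 18 counts in any library.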
